A study of Mus musculus with 14 samples.

Results

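Microglia from retinas injected with microbeads were compared with microglia from naive retinas, which received no injection. The comparison holds the 3 libraries titled microbead-injected retina and the 4 titled naive retina, 7 of the 14 libraries in the series. All libraries came from wild type C57BL/6 mice aged 12 weeks, 1 library per retina, and the labels give the microbead samples the description glaucoma, in which ganglion cells of the retina and their axons are lost. The remaining libraries are 3 from contralateral retinas and 4 from sham-injected retinas, and they are used here as side values and to share the estimate of the spread. The cells were sorted as positive for CD11b and Fcrls and negative for Ly6c, and 100 to 600 cells per retina were collected, so each library is a small pool of cells. No label says how long after injection the retinas were taken, which retinas came from 1 mouse, or what the eye pressure was, and p-values measure only the spread between these libraries.

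Microglia are macrophages that reside in neural tissue. In healthy tissue they carry a homeostatic program of genes such as P2ry12, Tmem119 and Cx3cr1, which is maintained by signals such as TGF-beta. Near dying neurons they can take on a state called MGnD or disease-associated, in which phagocytic, lipid-handling and lysosomal genes such as Apoe, Cst7 and Gpnmb are raised through the receptor Trem2 and its adaptor Tyrobp. Inflammatory signals act on the same cells through NF-kB, which drives chemokines and its own inhibitor IkB-alpha, and through interferons, which drive antiviral genes and antigen presentation by MHC molecules.

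Of 14279 genes tested, 27 rose in microbead retinas and 3 fell (edgeR, adjusted p under 0.05), which is 0.189% and 0.021% of the genes. Of all genes tested 45.0% were higher. An unadjusted p under 0.05 was reached by 674 genes that were higher (4.72%) and 830 that were lower (5.81%). These shares are the background for the counts given for each list below. Every microbead library lay above every naive library for 693 genes (4.85%) and below every one for 997 (6.98%). All 30 called genes had groups that did not overlap. The count of calls rested on single libraries: it was 17, 52 and 168 without microbead 1, 2 and 3, and 1, 0, 5 and 1 without naive 1, 2, 3 and 4, while all 30 genes kept their direction each time. Of the 17 without microbead 1, the shallowest library, 10 were among the 30. The rises were genes of complement (C4b), monocyte-attracting chemokines (Ccl12, Ccl2), Fc receptors (Fcgr1, Fcer1g), lipid transport (Apoe), ferritin (Fth1, Ftl1), NF-kB feedback (Nfkbia), interferon response and antigen presentation (Ifitm3, Ifi30, H2-D1), together with 6 ribosomal protein genes and short genes of the respiratory chain. The other rises were Cd72, Cd63, Id2, Tspo and Cd52, with 2 predicted genes or pseudogenes. The falls were Sirpa, Ivns1abp and Pcdhga9.

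**Figure D1:**
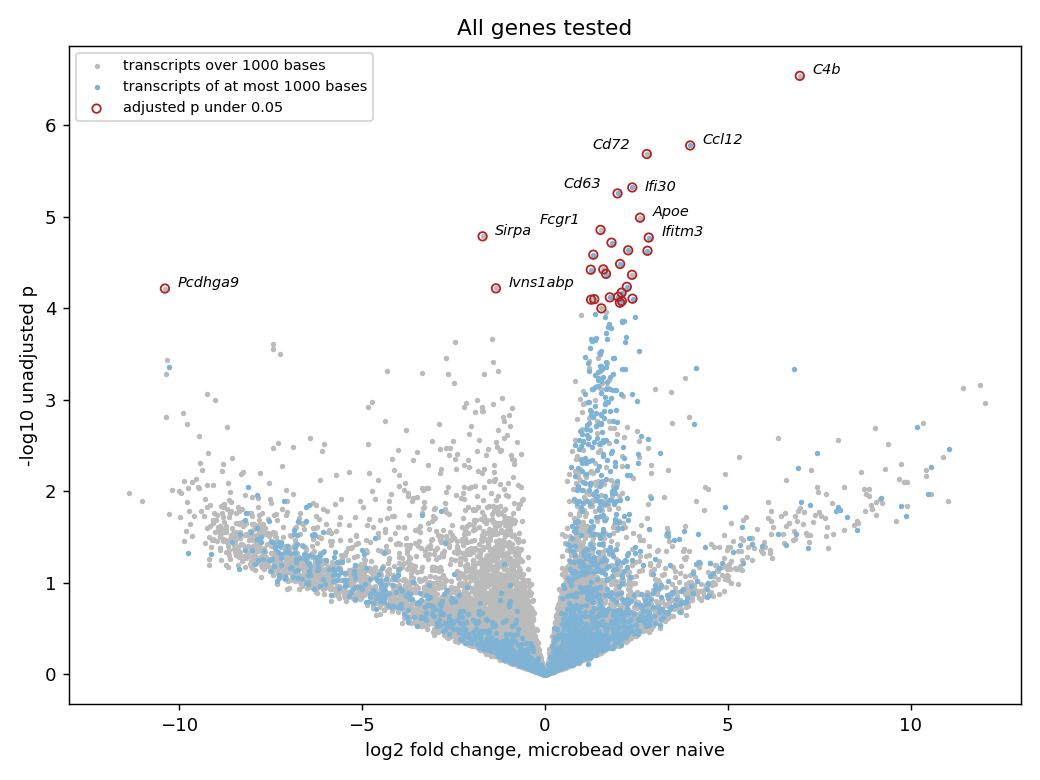
Each point is 1 of the 14279 genes tested, with the log2 fold change of microbead over naive on the horizontal axis and -log10 of the unadjusted p on the vertical axis. Circles mark the 27 genes that rose and the 3 that fell at an adjusted p of 0.05, and blue points, transcripts of at most 1000 bases, gather on the right side.

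Levels are CPM, counts scaled by library size, given for each library or as mean ± SD with n = 3 for microbead and n = 4 for naive. The libraries differed in ways that touch these results. Reads assigned to genes numbered 1.341, 10.653 and 13.912 M in microbead 1 to 3, against 7.056 to 12.194 M in naive libraries (exact two-sided permutation test, p = 0.686). Microbead 1, the shallowest, had reads in 10132 genes, against 13962 to 16215 in the naive libraries. For genes with at least 10 CPM, the median log2 level of transcripts of at most 1000 bases minus that of transcripts over 4000 bases, each relative to the naive mean, was 1.86, 0.76 and 1.26 in microbead 1 to 3. In naive 1 to 4 it was 0.15, -0.06, -0.26 and 0.14, so the groups did not overlap (exact two-sided permutation test, p = 0.0571, the smallest that 3 against 4 libraries allow). The same difference was 0.46, 0.98 and -0.27 in contralateral 1 to 3, so contralateral 2 lay above microbead 2. In sham 1 to 4 this difference was 0.10, -0.02, 0.14 and -0.05. Of the 27 rises, 18 had transcripts of at most 1000 bases, while 15.0% of the tested genes do. Values with a smooth trend on transcript length removed from each library are therefore given beside those of the called genes that are named. With it removed, 2 of the 30 calls remained, C4b and Cd72. The source of the trend was not tested.

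**Figure D2:**
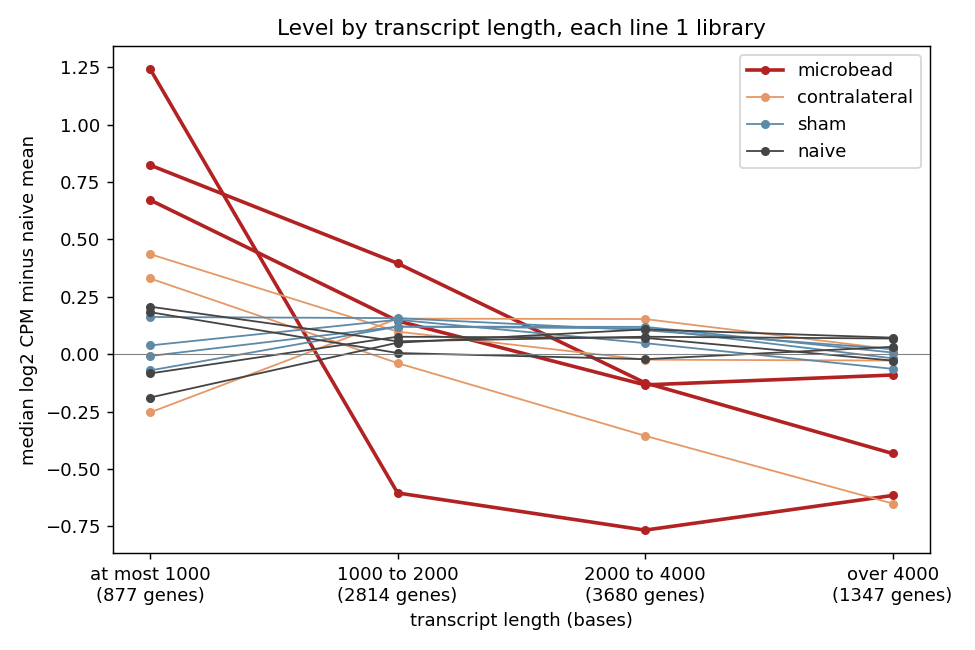
Each line is 1 library, and points give the median log2 CPM minus the naive mean over genes in 4 classes of transcript length. The 3 microbead libraries lie at 1.243, 0.672 and 0.824 for transcripts of at most 1000 bases, above all other libraries, and at or below -0.091 for transcripts over 4000 bases. In that last class contralateral 2 is the lowest library, at -0.651.

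The promoters of 4 genes whose families are described below are shown because they hold letters known as binding sites of NF-kB or of the MHC class II enhanceosome. Sequences are RefSeq's upstream bases on GRCm38.p6, on the gene's own strand, ending 1 base before the start site. Capitals in the promoters of Nfkbia and H2-D1 mark the NF-kB pattern GGGNNTTNC on either strand, and capitals in those of H2-Aa and H2-Eb1 mark the core of the X box, GCAAC, and the Y box, ATTGG, on the gene's strand.
Nfkbia, chr12:55492648-55492787, minus strand: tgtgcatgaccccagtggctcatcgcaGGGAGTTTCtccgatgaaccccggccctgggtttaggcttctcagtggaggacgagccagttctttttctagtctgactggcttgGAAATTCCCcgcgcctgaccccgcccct
H2-D1, chr17:35262904-35263093, plus strand: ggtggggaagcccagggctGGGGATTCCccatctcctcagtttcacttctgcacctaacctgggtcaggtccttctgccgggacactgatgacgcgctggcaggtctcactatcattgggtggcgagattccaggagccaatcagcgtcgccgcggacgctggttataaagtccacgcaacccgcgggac
H2-Aa, chr17:34287824-34287933, minus strand: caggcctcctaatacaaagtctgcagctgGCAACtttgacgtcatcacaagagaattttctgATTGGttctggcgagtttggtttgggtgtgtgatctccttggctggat
H2-Eb1, chr17:34305757-34305866, plus strand: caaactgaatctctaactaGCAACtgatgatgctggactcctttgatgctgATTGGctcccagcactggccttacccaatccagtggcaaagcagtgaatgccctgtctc
The stretch of H2-D1 lies inside the gene's span in GENCODE, whose first base is 35262730. The 4 promoters were picked after matches had been seen. Of the 30 called genes 19 had an entry, and 2 of those, Nfkbia and H2-D1, held the NF-kB pattern within 250 bases upstream, against 12.9% of 32544 promoters. Of 10 class II genes with an entry, 4 held GCAAC followed by ATTGG with first bases 20 to 40 apart, namely H2-Aa, H2-Eb1, H2-Oa and H2-Ob, against 0.47% of all promoters. A match describes letters only and is not a measurement of binding.

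Complement proteins tag debris and synapses for phagocytosis, and C4b encodes the component that is cleaved in the classical pathway. C4b (ENSMUSG00000073418.4, chromosome 17, 34728380 to 34743882, minus strand, mm10) stood at 939, 930.3 and 459 CPM in microbead 1 to 3, against 11.4, 4.72, 7.16 and 1.64 CPM in naive 1 to 4. The lowest microbead library was far above the highest naive library, and the log2 fold change was 6.97 (SE 0.88, adjusted p = 0.00414). With the length trend removed it was 7.11, and C4b passed in 17 of the 18 alternatives tested, all but the one without naive 2. Sham retinas averaged 43.2 CPM and contralateral retinas 32.4 CPM, both between the microbead and the naive means. C4a, a near-identical copy, had 2.15, 7.92 and 21.6 CPM in microbead 1 to 3, against 0 CPM in naive 1, 2 and 4 and 2.87 CPM in naive 3, and reads may be split between the copies. Of 17 complement genes tested, 12 were higher, 4 of them at an unadjusted p under 0.05, and the list median was 0.35 against -0.14 over all genes. C1qb and C1qa, subunits of the initiating complex, did not pass: C1qb averaged 8174 ± 687 CPM in microbead and 4614 ± 158 CPM in naive retinas (adjusted p = 0.0877), and C1qa averaged 4624 ± 1314 and 3061 ± 89.1 CPM (adjusted p = 0.278). Cfb, a protease of the alternative pathway, had 0, 72.2 and 2.81 CPM in microbead and 0, 0.899, 0.398 and 0 CPM in naive libraries, so microbead 2 alone was high.

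Chemokines that attract monocytes were the next group. Ccl12 (chromosome 11, 82101845 to 82103400, plus strand), a ligand of the receptor Ccr2, stood at 4599.7, 485 and 1725 CPM in microbead 1 to 3, against 95.6, 170.4, 215 and 97.3 CPM in naive 1 to 4. Microbead 1 was the highest and microbead 2 the lowest of its group, still above every naive library, and Ccl12 rose by 3.97 on the log2 scale (SE 0.57, adjusted p = 0.00986). Its transcript is short, and with the length trend removed the value was 2.08. Ccl2, the best-known Ccr2 ligand, lies nearby (82035571 to 82037453) and stood at 479.7, 309 and 539 CPM in microbead, against 23.998, 65.6, 103 and 60.8 CPM in naive libraries. Its log2 fold change was 2.81 (SE 0.50, adjusted p = 0.0281), or 1.94 with the trend removed. Sham retinas averaged 149.5 CPM of Ccl2 and 429 CPM of Ccl12, above the naive means. Of 19 chemokine and cytokine genes tested, 16 were higher, 8 at an unadjusted p under 0.05, and the median was 1.54, or 1.29 with the trend removed. Ccl4, another chemokine gene, stood at 1161, 473 and 391.6 CPM in microbead and 53.8, 119.6, 264 and 157 CPM in naive libraries without passing (adjusted p = 0.0651), and Cxcl16 averaged 299 ± 18.96 and 106 ± 13.1 CPM (adjusted p = 0.0761).

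Nfkbia encodes IkB-alpha, which NF-kB induces and which holds NF-kB in the cytoplasm. It stood at 1169.8, 743 and 1089 CPM in microbead 1 to 3, against 282, 369, 322 and 347 CPM in naive 1 to 4, with groups well apart. The log2 fold change was 1.60 (SE 0.30, adjusted p = 0.0339), and 1.46 with the length trend removed. Sham 1 to 4 stood at 702, 635, 394 and 513 CPM of Nfkbia, each above every naive library and below every microbead library. Over all genes 45.0% were higher, 4.72% were higher at an unadjusted p under 0.05, and 5.81% were lower at that level. Of 22 genes of NF-kB and its inhibitors 14 were higher, 3 of them at an unadjusted p under 0.05, and 1 was lower at that level. That last gene, the subunit Rela, averaged 68.98 ± 23.1 CPM in microbead and 143 ± 47.04 CPM in naive retinas, while the inhibitor Nfkbiz averaged 358 ± 186 and 132 ± 35.1 CPM and the survival gene Bcl2a1b 370.1 ± 26.7 and 149.8 ± 50.1 CPM, all 3 without passing (adjusted p = 0.425, 0.136 and 0.129). Id2 encodes an inhibitor of basic helix-loop-helix factors and is a target of TGF-beta family signals. It stood at 402, 186 and 217 CPM in microbead, against 29.2, 49.8, 88.5 and 37.6 CPM in naive libraries. Its log2 fold change was 2.38 (SE 0.45, adjusted p = 0.0343), or 1.99 with the length trend removed. Sham libraries ranged from 55.8 to 146 CPM of Id2, overlapping the naive libraries. Of the 17 TGF-beta and Id genes tested 7 were higher, and at an unadjusted p under 0.05 1 was higher, Id2 itself, and 4 were lower, among them Smad3 (32.4 ± 27.2 CPM in microbead, 89.2 ± 9.65 CPM in naive) and Itgav (28.1 ± 5.96 and 74.8 ± 25.4 CPM), neither past the adjusted threshold.

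**Figure D3:**
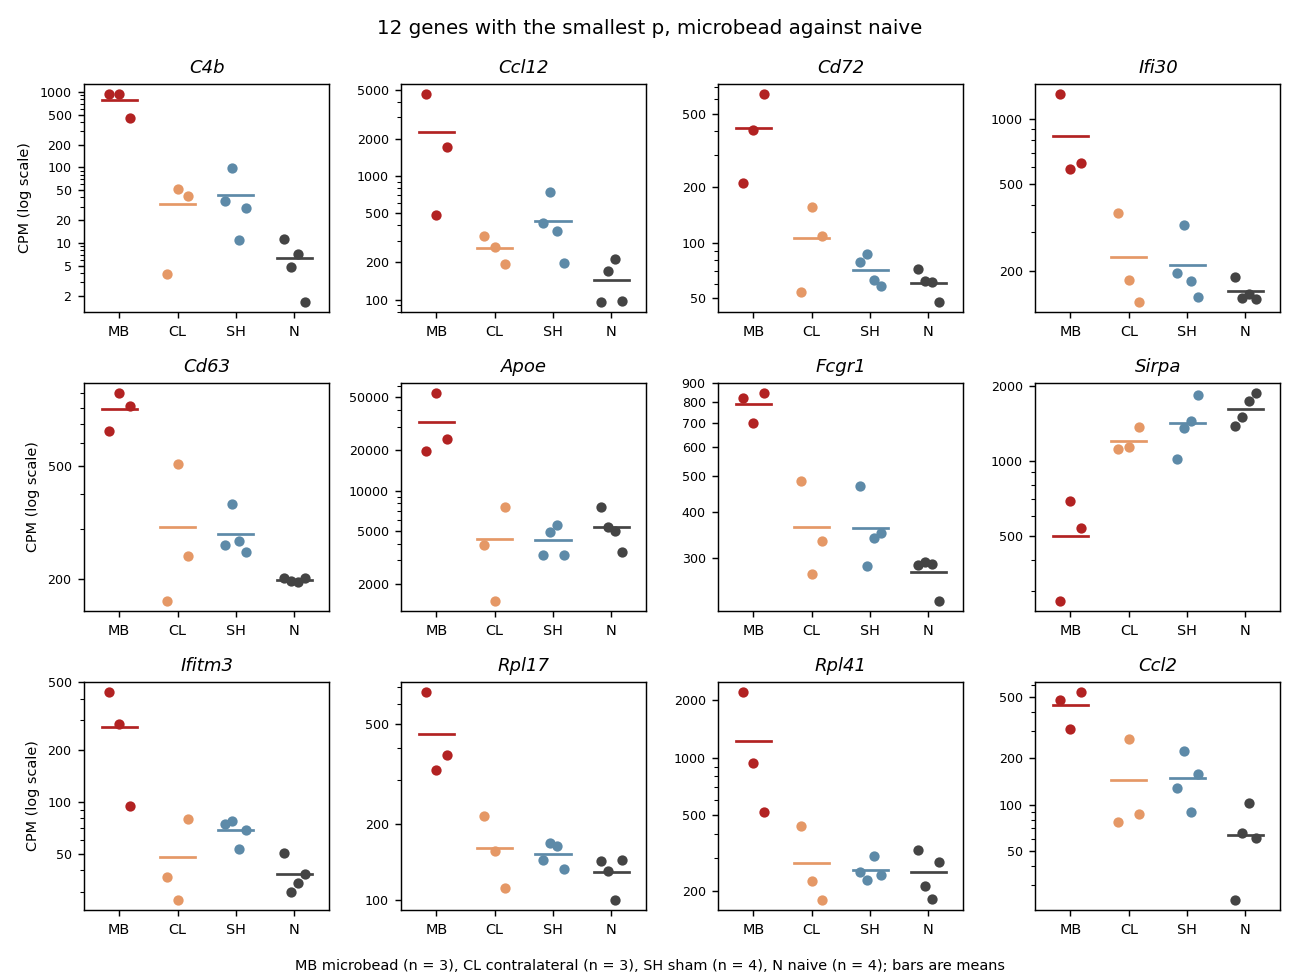
Each panel gives 1 of the 12 genes with the smallest p, with CPM on a log axis for the 3 microbead, 3 contralateral, 4 sham and 4 naive libraries, and horizontal bars for the means. In all 12 panels the microbead points lie apart from the naive points, above them except for Sirpa, where they lie below.

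Apoe, which carries lipid between cells and is a hallmark of MGnD, rose in all 3 microbead libraries. It stood at 19622, 53582 and 24312 CPM in microbead 1 to 3, against 7578, 5379.9, 4969 and 3472 CPM in naive 1 to 4. Microbead 2 was the highest, and the log2 fold change was 2.60 (SE 0.43, adjusted p = 0.0244), or 2.18 with the length trend removed. Sham retinas averaged 4262 CPM and contralateral retinas 4332 CPM, both under the naive mean. Cd63, a tetraspanin of late endosomes, stood at 664, 902 and 811 CPM in microbead, against 202, 198, 196 and 202 CPM in naive libraries (log2 fold change 1.99, SE 0.31, adjusted p = 0.0159, and a log2 fold change of 1.305 with the length trend removed). Tspo, a mitochondrial outer membrane protein used as an imaging marker of microglial activation, stood at 749, 269 and 283 CPM in microbead, against 128, 77.9, 95.3 and 103 CPM in naive libraries (log2 fold change 2.10, SE 0.41, adjusted p = 0.0426). Cd52, a small surface glycoprotein, stood at 829, 290.3 and 261 CPM in microbead, against 107, 107, 99.7 and 129 CPM in naive libraries (log2 fold change 2.05, SE 0.41, adjusted p = 0.0429). In Tspo and Cd52 microbead 1 was the highest by far, and the values with the trend removed were 1.09 and 0.38.

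The MGnD list held 30 tested genes, of which 5 rose (Apoe, Cd63, Fth1, Cd52 and Tspo) and 15 were higher at an unadjusted p under 0.05, with none lower at that level. Its median log2 fold change was 1.35, or 0.93 with the length trend removed, against -0.14 and -0.25 over all genes. By mean level the list stood at 0.85, 2.31 and 1.63 log2 units over the naive mean in microbead 1 to 3, against -0.31 to 0.22 in the naive libraries. Several of its best-known members were low in naive retinas and higher in microbead retinas without passing the test. Lgals3, a lectin of damaged lysosomes, had 111, 111 and 184 CPM in microbead, against 0, 2.25, 2.07 and 0 CPM in naive libraries (adjusted p = 0.236). Gpnmb, a lysosomal membrane glycoprotein, had 14.4, 106 and 516 CPM in microbead, against 0, 9.59, 0.557 and 0 CPM in naive libraries (adjusted p = 0.166). Cst7, a protease inhibitor, had 94.1, 124 and 57.99 CPM in microbead, against 15.999, 22.03, 12.1 and 1.07 CPM in naive libraries (adjusted p = 0.419), and Fabp5, a fatty acid carrier, had 30.9, 118 and 104 CPM in microbead, against 0, 0, 0 and 6.001 CPM in naive libraries (adjusted p = 0.417). For these 4 genes the groups did not overlap, while the libraries differed widely among themselves.

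Other genes linked to that state did not pass. Of those that follow, Tyrobp had every microbead library above every naive one, and the groups of the others overlapped. The receptor gene Trem2 averaged 1982 ± 328 CPM in microbead and 1518 ± 139 CPM in naive retinas (adjusted p = 0.586), and its adaptor Tyrobp averaged 2013 ± 1066 and 910.4 ± 146 CPM (adjusted p = 0.139). With the length trend removed both had log2 fold changes under 0, at -0.03 and -0.28. The kinase gene Axl averaged 169 ± 118 and 166 ± 70.2 CPM, the lectin gene Clec7a 159 ± 81.5 and 174 ± 51.7 CPM, and the lipase gene Lpl 33.7 ± 14.2 and 57.2 ± 35.4 CPM in microbead and naive retinas, with adjusted p of 0.997, 0.977 and 0.893. Itgax, which encodes CD11c, averaged 62.9 ± 48.9 CPM in microbead and 13.7 ± 13.5 CPM in naive retinas (adjusted p = 0.490), and the growth factor gene Csf1 averaged 15.9 ± 12.5 and 4.53 ± 2.84 CPM (adjusted p = 0.726). Spp1 and Igf1, which encode osteopontin and a growth factor, were at 0 in microbead 1 and 3, stood at 62.7 and 31.9 CPM in microbead 2, and in naive libraries reached 8.54 and 5.17 CPM.

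No gene of the homeostatic program passed the adjusted threshold. Of 30 tested, 10 were higher, and the median of -0.20 lay near the -0.14 of all genes. At an unadjusted p under 0.05 2 were higher and 7 lower, where over all genes 4.72% were higher and 5.81% lower. By mean level the list stood at -0.59, -0.47 and 0.02 in microbead 1 to 3, against -0.21 to 0.14 in naive libraries. The purinergic receptor gene P2ry12 stood at 251, 577 and 1229.7 CPM in microbead, against 1229, 2329, 2093 and 1577 CPM in naive libraries (log2 fold change -1.40, SE 0.44, adjusted p = 0.230), and the highest microbead library overlapped the lowest naive one. The fractalkine receptor gene Cx3cr1 averaged 2665 ± 836 CPM in microbead and 4505 ± 823 CPM in naive retinas (adjusted p = 0.171). Csf1r, the receptor for survival signals, averaged 3688 ± 649 and 5789 ± 961 CPM, and the TGF-beta receptor gene Tgfbr1 380.5 ± 116 and 688 ± 60.5 CPM, with groups apart for both (adjusted p = 0.196 and 0.224). Tmem119 averaged 1815 ± 762 and 2371 ± 309 CPM and the transcription factor gene Sall1 283 ± 115 and 482 ± 135 CPM, with overlapping groups (adjusted p = 0.612 and 0.479).

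Receptors that set the threshold of phagocytosis and immune signalling moved in both directions. Sirpa (chromosome 2, 129592835 to 129632228, plus strand) encodes the receptor for CD47, a signal that restrains phagocytosis. It fell to 274, 688 and 536 CPM in microbead 1 to 3, against 1376, 1499, 1744 and 1875 CPM in naive 1 to 4 (log2 fold change -1.70, SE 0.29, adjusted p = 0.0269). The value was -1.53 with the length trend removed, and sham retinas averaged 1416 CPM. Cd72 (chromosome 4, 43446462 to 43454628, minus strand), an inhibitory lectin best known from B cells, rose to 211, 405 and 638 CPM in microbead 1 to 3, against 71.7, 61.8, 61.1 and 47.7 CPM in naive 1 to 4. Its log2 fold change was 2.79 (SE 0.41, adjusted p = 0.00986), and 2.49 with the trend removed. Of 18 inhibitory receptor genes 4 were higher and 4 lower at an unadjusted p under 0.05. Cd300lf, a lipid-binding inhibitory receptor, stood at 125, 133 and 101 CPM in microbead, against 15.7, 5.32, 11.1 and 10.4 CPM in naive libraries, without passing (adjusted p = 0.138), and Pilra averaged 175 ± 35.3 and 51.7 ± 31.2 CPM (adjusted p = 0.136).

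Fc receptors bind antibody-coated targets. Fcgr1, the high-affinity receptor for IgG, stood at 819, 700.0 and 844 CPM in microbead, against 286, 292, 289 and 228 CPM in naive libraries (log2 fold change 1.52, SE 0.26, adjusted p = 0.0269), and 1.46 with the length trend removed. Its signalling chain gene Fcer1g stood at 4628, 1509 and 1825 CPM in microbead, against 937, 816, 736 and 838 CPM in naive libraries (log2 fold change 1.67, SE 0.31, adjusted p = 0.0343). For Fcer1g microbead 1 was the highest, and the value was 0.36 with the trend removed. By mean level the Fc receptor list stood at 0.42 and 1.21 in microbead 1 and 3 and at -0.36 in microbead 2, below every naive library (-0.16 to 0.09). By summed CPM microbead 2 was above every naive library, at 4407 against 2771 to 3222 CPM. Of 8 Fc receptor genes tested 7 were higher, 4 at an unadjusted p under 0.05, including Fcgr4 (211 ± 59.5 CPM in microbead, 74.2 ± 10.9 CPM in naive, adjusted p = 0.0936) and the inhibitory Fcgr2b (639.7 ± 393 and 310.3 ± 79.4 CPM, adjusted p = 0.300).

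Antigen presentation and interferon genes were next. Ifi30, a lysosomal thiol reductase that unfolds antigens for class II loading, stood at 1308, 587 and 626 CPM in microbead, against 187, 149, 157 and 148 CPM in naive libraries (log2 fold change 2.39, SE 0.37, adjusted p = 0.0159, and a log2 fold change of 1.65 with the length trend removed). H2-D1, a class I heavy chain, stood at 1315, 2962 and 2579.7 CPM in microbead, against 841, 1039, 1041 and 884 CPM in naive libraries (log2 fold change 1.27, SE 0.25, adjusted p = 0.0426, and a log2 fold change of 1.24 with the length trend removed). Class I genes are near-identical, so reads may be split among them. H2-K1 averaged 1891 ± 859 CPM in microbead and 926 ± 89.996 CPM in naive retinas, and the light chain gene B2m 3209.8 ± 495 and 1487 ± 79.5 CPM, without passing (adjusted p = 0.108 and 0.0778). Of 23 class I and loading genes 20 were higher, 8 at an unadjusted p under 0.05, with a median of 0.71, or 0.40 with the length trend removed. By mean level, in which each gene weighs the same, the list stood at -0.181 in microbead 1, below every naive library (-0.085 to 0.045). In microbead 2 and 3 it stood at 0.82 and 0.69. By summed CPM, to which abundant genes add most, microbead 1 was above every naive library, at 8895 against 5731 to 6517 CPM. The loading chaperone gene Calr averaged 399 ± 157 CPM in microbead and 193 ± 35.2 CPM in naive retinas (adjusted p = 0.188).

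Class II genes varied widely among the naive libraries. H2-Aa, a class II alpha chain whose promoter is shown above, stood at 366, 837 and 1699 CPM in microbead, against 6.10, 198, 27.3 and 120.0 CPM in naive libraries, and H2-Ab1, its partner, stood at 509, 1115 and 2852 CPM in microbead, against 90.2, 452, 76.4 and 118 CPM in naive libraries. The groups did not overlap for either gene, and neither passed (adjusted p = 0.0958 and 0.0936). The invariant chain gene Cd74 averaged 696 ± 459 and 121 ± 105 CPM in microbead and naive retinas (adjusted p = 0.151). Sham and contralateral retinas averaged 330.2 and 279 CPM of H2-Aa. Of 14 class II genes 11 were higher, 7 at an unadjusted p under 0.05. By mean level the class II list stood at 1.10, 1.85 and 1.88 in microbead 1 to 3, against -1.13 to 0.91 in naive libraries. In sham 1 to 4 it stood at 1.20, 2.14, 0.68 and 0.74, so sham 2 lay above all 3 microbead libraries. Ifitm3, an interferon-induced membrane protein that blocks viral entry, stood at 437, 284 and 94.2 CPM in microbead, against 50.3, 29.7, 33.7 and 37.8 CPM in naive libraries (log2 fold change 2.84, SE 0.49, adjusted p = 0.0269). Its value was 1.63 with the trend removed. Of 36 interferon-stimulated genes 29 were higher, 9 at an unadjusted p under 0.05, with a median of 0.89. By mean level the list stood at -0.51 in microbead 1, below every naive library (-0.43 to 0.53), and at 1.48 and 1.32 in microbead 2 and 3. Its summed CPM was 3049, 4989 and 4161 in microbead 1 to 3, each above the naive libraries (1838 to 2500). Ifi27l2a averaged 279.6 ± 194 CPM in microbead and 46.5 ± 23.7 CPM in naive retinas, Oas1a 128 ± 8.25 and 49.2 ± 21.3 CPM and Lgals3bp 779 ± 552 and 282 ± 83.4 CPM (adjusted p = 0.0744, 0.281 and 0.190).

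**Figure D4:**
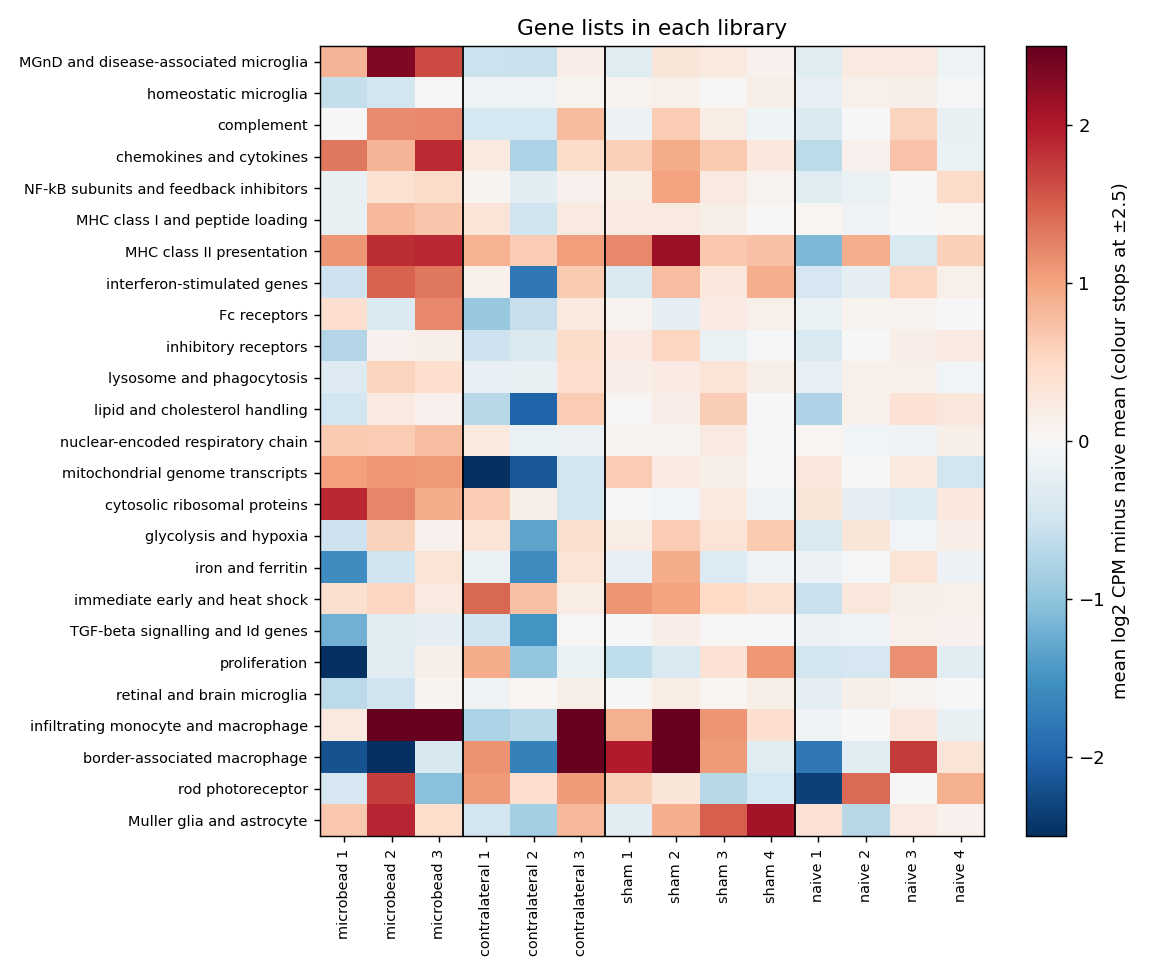
Rows are gene lists with at least 5 genes tested, columns are libraries, and colour gives the mean log2 CPM of a list minus its naive mean, stopping at 2.5 in either direction. The MGnD row is above the naive range in all 3 microbead libraries, at 0.85, 2.31 and 1.63, while the interferon row is at -0.51 in microbead 1 and at 1.48 and 1.32 in microbead 2 and 3. By summed CPM, not drawn, the interferon list was above the naive range in all 3.

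Ferritin stores iron, and both of its subunit genes rose. Fth1 stood at 4893, 3683 and 3438 CPM in microbead, against 1729, 1461, 1478 and 2037 CPM in naive libraries (log2 fold change 1.26, SE 0.23, adjusted p = 0.0339), and Ftl1 at 3868, 5039 and 3966 CPM in microbead, against 1642, 1669.7, 1513 and 2022 CPM in naive libraries (log2 fold change 1.33, SE 0.24, adjusted p = 0.0286). Both transcripts are short, both genes have many pseudogene copies, and the values were 0.44 and 0.72 with the length trend removed. The iron exporter gene Slc40a1 stood at 17.2, 8.37 and 14.8 CPM in microbead, against 64.7, 67.1, 87.96 and 72.7 CPM in naive libraries, without passing (log2 fold change -2.45, SE 0.54, adjusted p = 0.0651), and the ferritin cargo receptor gene Ncoa4 averaged 16.6 ± 22.9 and 61.8 ± 24.3 CPM (adjusted p = 0.475).

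None of the 36 genes of the lysosome and phagocytosis list passed the adjusted threshold. Of these 29 were higher, 8 of them at an unadjusted p under 0.05. By mean level the list stood at -0.32, 0.56 and 0.42 in microbead 1 to 3, against -0.20 to 0.14 in naive libraries. Its summed CPM was 82410, 78020 and 99190 in microbead 1 to 3, against 61890 to 73110 in naive libraries. The protease gene Ctsh stood at 1597, 1529 and 2124 CPM in microbead, against 926, 748, 903 and 921 CPM in naive libraries (adjusted p = 0.0510), just outside the threshold. Ctsl, another cathepsin, averaged 1597 ± 558 CPM in microbead and 615 ± 148 CPM in naive retinas, and the cholesterol carrier Npc2 868 ± 243 and 490.1 ± 33.7 CPM (adjusted p = 0.0646 and 0.170). Elmo1, which links engulfment receptors to the cytoskeleton, averaged 251 ± 95.1 and 666 ± 196 CPM (adjusted p = 0.0808). Of 26 lipid genes 12 were higher, and the median of -0.10 lay near that of all genes. Olr1, a scavenger receptor gene, had 0 reads in microbead libraries and reached 11.8 CPM in naive 2.

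Genes for ribosomal proteins and for the respiratory chain have mostly short transcripts, and the medians of their lists were much nearer to 0 with the length trend removed. Rpl17 stood at 669, 327 and 375 CPM in microbead, against 143, 129, 99.7 and 144 CPM in naive libraries (log2 fold change 1.82, adjusted p = 0.0275, and a log2 fold change of 0.80 with the length trend removed). Rpl41 stood at 2213, 943 and 521 CPM in microbead, against 329, 213, 183 and 285 CPM in naive libraries (log2 fold change 2.28, adjusted p = 0.0281, and a log2 fold change of 0.61 with the length trend removed). Microbead 1 was the highest library for both genes. Rpl30 stood at 819, 316 and 226 CPM in microbead, against 109, 119, 90.3 and 132 CPM in naive libraries (log2 fold change 2.01, adjusted p = 0.0426, and a log2 fold change of 0.59 with the length trend removed). Rpl23 and Rpsa also rose, by log2 fold changes of 1.78 and 1.55. With the trend removed Rpl23 was at 0.77, while Rpsa, whose transcript of 1861 bases is longer, was at 1.54. Of 47 ribosomal protein genes in the list 46 were higher at an unadjusted p under 0.05. Their median of 1.48 was 0.28 with the trend removed, against -0.14 and -0.25 over all genes. With the trend removed 38 of the 47 were higher. The respiratory subunit gene Cox4i1 stood at 1754, 541 and 499 CPM in microbead, against 226, 185, 147 and 229 CPM in naive libraries (log2 fold change 2.24, adjusted p = 0.0415, and a log2 fold change of 0.94 with the length trend removed). Cox8a stood at 860.3, 231 and 248 CPM in microbead, against 122, 89.1, 75.5 and 127 CPM in naive libraries (log2 fold change 2.11, adjusted p = 0.0426, and a log2 fold change of 0.45 with the length trend removed). Uqcrh and Cox6a1, subunits of complexes III and IV, averaged 163 ± 54.6 and 209.6 ± 212 CPM in microbead, against 56.2 ± 17.4 and 54.5 ± 10.1 CPM in naive retinas, without passing. The 37 nuclear respiratory genes had a median of 1.26, or -0.07 with the trend removed, and the 13 mitochondrial transcripts one of 0.98, or 0.25. Of the mitochondrial transcripts, mt-Co2 averaged 1553 ± 980.2 CPM in microbead and 504 ± 109.6 CPM in naive retinas (adjusted p = 0.130), and mt-Atp6, mt-Nd2 and mt-Nd4 had adjusted p of 0.301, 0.289 and 0.436. The remaining rises were 2410006H16Rik and the pseudogene Gm15500, which are counted only.

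**Figure D5:**
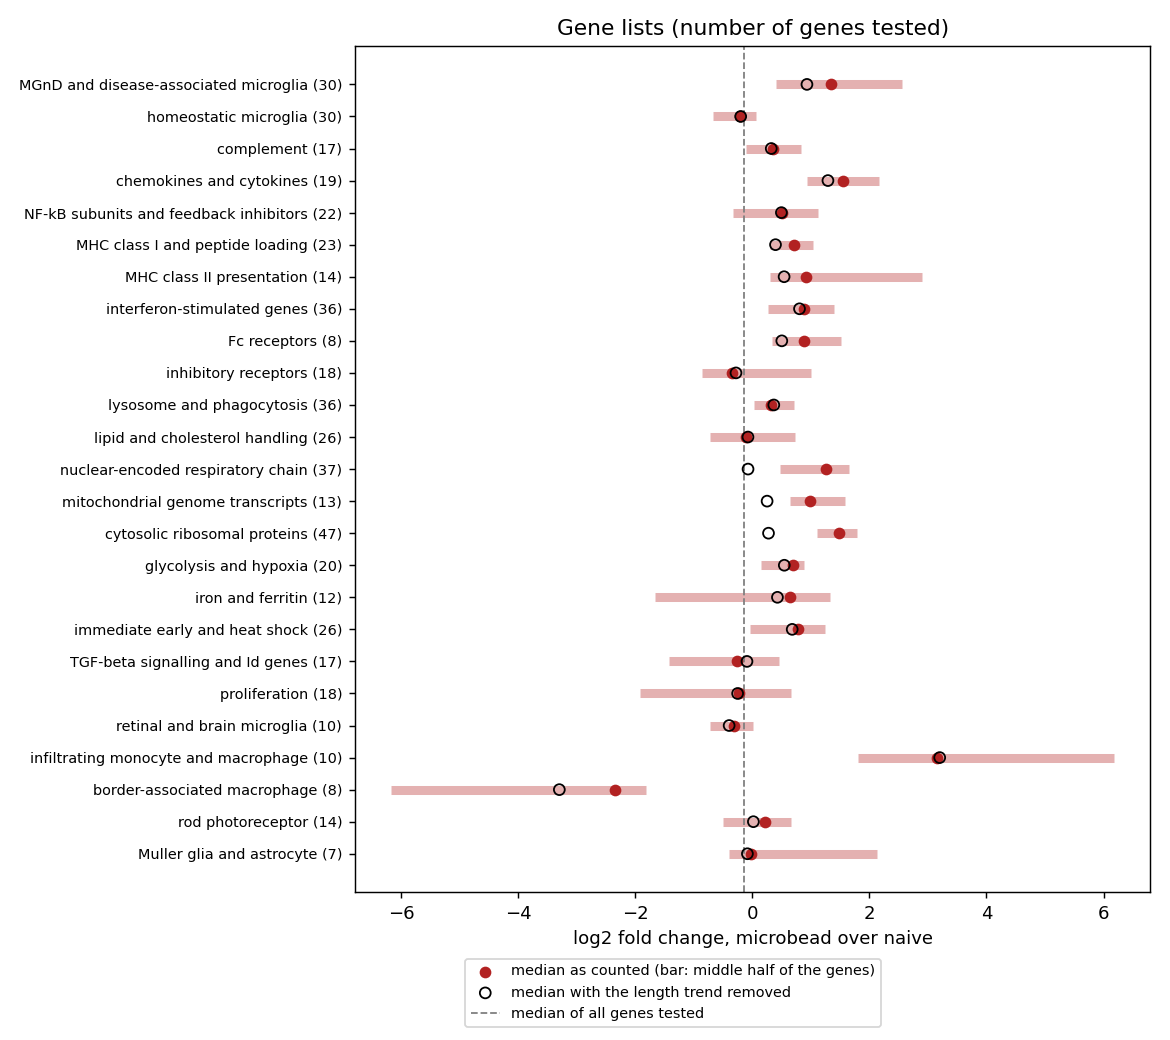
For each gene list with at least 5 genes tested, the filled point is the median log2 fold change of microbead over naive, the bar the range between its quartiles, and the open point the median with the length trend removed. The ribosomal list has medians of 1.48 as counted and 0.28 with the trend removed, while the homeostatic list stays at -0.20, beside the dashed line for all genes at -0.14.

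The other 2 falls were in genes with no list. Ivns1abp, which encodes an actin-binding protein, fell to 414, 545 and 346 CPM in microbead, against 1045, 979, 949 and 1418 CPM in naive libraries (log2 fold change -1.33, SE 0.26, adjusted p = 0.0415, and a log2 fold change of -1.19 with the length trend removed). Pcdhga9, a protocadherin gene of the gamma cluster, had 0 reads in the 3 microbead libraries, against 11.3, 23.5, 7.64 and 22.1 CPM in naive libraries (adjusted p = 0.0415, or an adjusted p of 0.166 with the length trend removed). Against a floor of 3 reads over the group it was at least 117-fold lower. Genes of that cluster share their last exons, so reads can be split among them.

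The 10 genes next by p had adjusted p between 0.0508 and 0.0569, all higher. They were the cyclin gene Ccnl1 (811 ± 426 CPM in microbead, 252 ± 40.8 CPM in naive), Ctsh, the ribosomal Rpl19, Rpl13, Rps28, Rps29 and Rps15, and the copies Gm15501, Rpl39-ps and Gm9794. Of 26 immediate early and heat shock genes 19 were higher, 10 at an unadjusted p under 0.05. Their median log2 fold change was 0.77 in microbead, 0.76 in contralateral and 0.63 in sham retinas, each against the same naive libraries, and the differences between these medians were not tested. Atf3 averaged 545 ± 118 CPM in microbead, 459.9 CPM in sham, 679 CPM in contralateral and 212 ± 76.02 CPM in naive retinas. The chaperone genes Hsp90ab1, Hsp90aa1 and Hspa8 averaged 1145 ± 537, 733 ± 566 and 2344 ± 427 CPM in microbead, against 444 ± 68.4, 212 ± 38.2 and 1286 ± 184 CPM in naive retinas. None of these 4 passed.

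Among 20 glycolysis and hypoxia genes 15 were higher with a median of 0.69, and none passed. By mean level the list stood at -0.52, 0.58 and 0.11 in microbead 1 to 3, against -0.39 to 0.30 in naive libraries. Microbead 1 was thus below every naive library and microbead 3 inside their range. Its summed CPM was 2057, 3784 and 3386 in microbead 1 to 3, against 1761 to 2283 in naive libraries. Aldoa averaged 589 ± 303 CPM in microbead and 321 ± 60.1 CPM in naive retinas, Gapdh 183 ± 57.8 and 105 ± 11.97 CPM, Eno1 324 ± 134 and 197 ± 21.4 CPM, and the regulator Pfkfb3, which was lower, 56.2 ± 19.5 and 133 ± 41.3 CPM. Of 18 proliferation genes 8 were higher and none passed. Mcm2, a replication helicase subunit, had 0 reads in microbead libraries, against 7.32, 29.98, 20.5 and 4.19 CPM in naive libraries (adjusted p = 0.0792). Mcm5, of the same complex, averaged 0.0372 ± 0.0644 CPM in microbead and 12.2 ± 17.9 CPM in naive retinas, the histone gene H2afz 274 ± 33.4 and 137 ± 23.1 CPM, and the tubulin gene Tubb5 479 ± 31.2 and 326 ± 66.9 CPM.

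Sham and contralateral retinas were set against the same naive retinas. Neither sham nor contralateral retinas had a gene past the adjusted threshold against naive retinas in edgeR's test, with 380 and 740 genes at an unadjusted p under 0.05. Over the 27 rises the median log2 change was 2.06 in microbead, 0.24 in sham and 0.38 in contralateral retinas. All 3 comparisons share the naive libraries, so these values are given side by side only. For 25 of the 27 the lowest microbead library exceeded the highest sham library, and for 24 it exceeded the highest contralateral library. The 27 were picked for high levels in these same microbead libraries. The shares over all genes were not computed, so both counts are description only. In edgeR's test of microbead against sham, 2 of the 30 genes, Apoe and Cd72, passed.

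Markers of the sort and of other cells were read in the same libraries. Fcrls averaged 724 ± 266 CPM in microbead and 704 ± 210.0 CPM in naive retinas, Itgam, which encodes CD11b, 376 ± 81.1 and 337 ± 41.9 CPM, and Ly6c2 had 0 reads in all 7 libraries. Aif1, which encodes the microglial marker IBA1, averaged 772 ± 449.7 and 330.4 ± 85.3 CPM, and its log2 fold change of 1.22 became -0.07 with the length trend removed. The 12 monocyte and macrophage markers summed to 989, 2266 and 2181 CPM in microbead 1 to 3, against 461 to 632 CPM in naive libraries. Sham libraries ranged from 599 to 1370 CPM and contralateral libraries from 381 to 1438 CPM, so both reached above microbead 1. Most of the sum in microbead and naive libraries was Lyz2, at 846, 1958 and 1962 CPM in microbead, against 441, 617, 486 and 596 CPM in naive libraries (adjusted p = 0.0904). Fn1 had 0, 111 and 38.3 CPM in microbead 1 to 3 and 0 reads in naive libraries, S100a4 had 0, 21.98 and 31.9 CPM and 0 reads, Ccr2 had 0, 25.3 and 21.7 CPM in microbead, against 0 to 5.33 CPM in naive libraries, and Cd44 and Vim averaged 41.9 ± 30.3 and 65.99 ± 9.88 CPM in microbead, against 2.34 ± 2.07 and 4.81 ± 8.92 CPM in naive retinas. Chil3 and Ly6c2 were at 0 in both groups, and no gene of the list passed. Of 10 border macrophage markers, which summed to 134 to 239 CPM in microbead and 344 to 500 CPM in naive libraries, Cbr2 and Cd209f were at 0 in both groups and Stab1 held most reads, at 181 ± 47.4 CPM in microbead and 369 ± 43.2 CPM in naive retinas (adjusted p = 0.159). Lyve1 and Cd163 had 0 reads in microbead libraries and averaged 4.20 ± 7.73 and 0.701 ± 1.05 CPM in naive retinas, and F13a1 averaged 0.0293 ± 0.0507 CPM in microbead and 7.04 ± 13.2 CPM in naive retinas. Their part in the results was not tested, and in pools of cells more cells of a type and more RNA per cell cannot be told apart.

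Rod photoreceptor markers summed to 1242, 4594 and 555 CPM in microbead 1 to 3, against 286 to 3499 CPM in naive libraries, overlapping. The rod genes Gngt1, Pde6g, Pde6b and Rom1 averaged 152 ± 145, 138 ± 80.98, 40.4 ± 54.3 and 162 ± 195 CPM in microbead, against 34.8 ± 15.2, 85.8 ± 41.5, 90.8 ± 78.5 and 100.1 ± 65.9 CPM in naive retinas. With the rod mean as a covariate 13 of the 30 genes passed. Markers of cones summed to 97.6 to 250 CPM in microbead and 49.99 to 141 CPM in naive libraries, of which Gngt2, a gene also read in macrophages, averaged 164 ± 78.1 and 90.2 ± 40.2 CPM. Opn1sw and Pde6h had 0 reads in microbead libraries and averaged 4.86 ± 9.30 and 0.604 ± 0.884 CPM in naive retinas, and Gnb3 averaged 19.1 ± 33.2 CPM in microbead retinas and reached 0.599 CPM in naive libraries. Bipolar, amacrine, ganglion, pigment epithelium, endothelial, neutrophil and erythrocyte markers each summed to at most 56.3 CPM in any microbead or naive library. Their tested genes Prkca, Otx2, Rbpms, Mitf, Pecam1, Kdr and Vwf had adjusted p between 0.439 and 0.968, and Cryab was at 0 in both groups. Lymphocyte markers summed to 60.3, 42.5 and 55.0 CPM in microbead 1 to 3, against 22.4 to 25.6 CPM in naive libraries, so the groups did not overlap. Nearly all of that sum was the B cell gene Cd79b, which averaged 52.4 ± 8.85 CPM in microbead and 24.2 ± 1.44 CPM in naive retinas (adjusted p = 0.510). Müller glia markers are dominated by Apoe, and Aqp4 and Slc1a3 of that list averaged 0.0293 ± 0.0507 and 36.6 ± 10.9 CPM in microbead and 0.644 ± 1.29 and 60.05 ± 29.8 CPM in naive retinas.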

How the data were processed

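Per the labels' protocols, RNA of sorted retinal microglia was sequenced, 1 library per retina. For each library the authors deposited expected counts, which are estimated reads per gene before any scaling. The same tables, as deposited by the authors, give TPM, scaled to a fixed total and not used here, and FPKM, scaled to length and depth and used as an alternative scale only. Per the submitters' processing notes the software included Salmon (1.4.0), DESeq2 (1.30.1) and R (4.0.3), with mm10 as build, and which of them made the tables is not stated. Groups follow the labels. Members, gene lists and alternatives were chosen with earlier results of these data known.

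After rounding, counts were analysed with edgeR 4.0.16 (R 4.3.3). The filter filterByExpr, with a minimum count of 10, left 14279 genes, and TMM scaled the libraries. A robust quasi-likelihood model with 1 coefficient per group was fitted to all 14 libraries and each contrast tested two-sided, with Benjamini-Hochberg adjustment over all genes and a threshold of 0.05. To remove the length trend, log2 CPM was smoothed on log2 transcript length in each library (lowess, span 0.5, genes of at least 10 CPM) and the curve entered as an offset. Alternatives used limma 3.58.1 and DESeq2 1.42.0. The floor for a group without reads, 3 reads over the group, covers counting error only, since reads are PCR copies without molecular identifiers. A gene absent from the authors' series-wide table held 5.22 to 24.2% of reads per library.

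Named genes are all that passed the threshold (predicted genes and pseudogenes counted only, and of 1 family up to 4 with full values), the 10 next by p, up to 4 per list by p, and a panel of sort and state markers whatever their p. Some genes under this rule are not reported here. Gene coordinates are from GENCODE M21.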

Additional observations from a re-analysis of the deposited data

Results flagged for a closer look

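In 17 of 133 genes examined, 1 of the 4 naive libraries stood far from the other 3 by Dixon's criterion. For independent, normally distributed values chance gives about 1 in 20. These genes share the same 4 libraries and several lie near 0 CPM, so 17 of 133 is not read as an excess. Among called genes and those next by p, Fcgr1 was low in naive 4 at 228.4 CPM, 2410006H16Rik high in naive 1 at 50.57 CPM, and Ctsh low in naive 2 at 748.1 CPM. Naive 2 was also high for H2-Ab1 at 452.3 CPM, Olr1 at 11.77 CPM, Opn1sw at 18.81 CPM and Gpnmb at 9.592 CPM. Naive 1 was low for Atf3 at 98.43 CPM and Clec7a at 97.49 CPM and high for Vwf at 21.42 CPM. Naive 3 was high for F13a1 at 26.75 CPM, Rbpms at 13.45 CPM and Igf1 at 5.174 CPM. Naive 4 was high for Fabp5 at 6.001 CPM, Eno1 at 228.7 CPM, Lyve1 at 15.78 CPM and Vim at 18.17 CPM. Their causes were not tested.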

How the results depend on the processing

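All 30 called genes kept their direction under the 18 alternatives with a test, and C4b passed in 17 of them, while the number of calls moved widely and the cause was not tested. Against 30 calls (27 higher, 3 lower), DESeq2 size factors gave 46 (43 higher), no filter on low counts 162 (125 higher, 37 lower), the DESeq2 Wald test 569 (313 higher, 256 lower, with 1681 adjusted p missing), voom with quality weights 194 (176 higher, 18 lower), the microbead and naive libraries alone 5 (5 higher, 0 lower), the length trend removed 2 (2 higher, 0 lower), and the rod mean as a covariate 13 (12 higher, 1 lower). Without libraries of fewer than 12000 genes, 11 genes were lower. With the replicate block, 1 gene passed (C4b, 1 higher, 0 lower). The labels do not say whether equal replicate numbers mark a shared mouse or day. Deviations from the group means correlated at 0.037, 0.013 and 0.063 between same-numbered microbead and naive libraries. Between differently numbered libraries they correlated at -0.043 to 0.019. Whether the numbers pair the libraries was not tested. Leaving out 1 library gave 0 to 168 calls, 0 to 105 higher and 0 to 63 lower; with 0 calls, without naive 2, 1259 genes had an unadjusted p under 0.05. The median of all genes, -0.137 in the main fit, moved down by over 0.1 without microbead 2 or 3 (-0.366 and -0.406). It also moved down by over 0.1 with voom (-0.277), the replicate block (-0.259) and the length trend removed (-0.252). With no filter on low counts it moved up by over 0.1, to -0.036 over 25656 genes.

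Changes of sign occurred in genes that did not pass. With the length trend removed these were Aif1 (-0.066), Pde6g (-0.182), Gngt2 (-0.432), Trem2 (-0.030) and Tyrobp (-0.277). With voom they were Aqp4 (0.654), Vwf (2.948), Clec7a (0.038) and Spp1 (-0.532), and with the rod covariate Vwf (4.176), Axl (-0.107) and Spp1 (-1.566). Fcrls was at -0.000 with no filter and -0.027 at 50 reads, where Axl was at -0.026. Without libraries of fewer than 12000 genes Clec7a was at 0.211. Leaving out 1 library gave ranges of -1.031 to 1.157 for Rom1, -3.823 to 10.607 for Gnb3, -5.729 to 2.107 for Aqp4, -0.401 to 2.786 for Kdr, -4.051 to 6.269 for Vwf, -0.040 to 0.264 for Itgam, -0.285 to 0.244 for Fcrls, -0.454 to 0.211 for Clec7a, -0.728 to 0.341 for Axl, -8.317 to 3.037 for Spp1 and -6.809 to 9.767 for Igf1.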
